A study of Sus scrofa with 11 samples.

Results

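Collagen chains are the genes of the deposited pig carotid artery table whose name is COL, a type number, A and a chain number. The table holds 41 such names, 1 row each, and 39 of them reached 10 or more counts in at least 2 of the 10 libraries, out of 35670 genes in all. The 39 were split into 8 fibrillar chains, 8 chains of networks and beaded filaments, 8 of basement membranes, 6 fibril-associated, 5 cartilage and 4 transmembrane or other chains. Of the names left out, COL10A1 had 0 counts in every library, which allows up to 0.00812 CPM over all libraries (3 counts of the total, counting error only; CPM are counts scaled to a common library size). COL25A1 lay just outside the rule with 10 counts or more in 1 library (16 counts), and COL22A1 just inside with 2 (28 and 10 counts).

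All pigs ate a Western diet rich in fat and calories for 12 weeks and were infused intravenously once a week, under general anaesthesia, at 400 nM. One group received carrier nanotubes alone (SWNT), the other that carrier loaded with a drug against SHP-1, a tyrosine phosphatase (SWNT-SHP1i). The tissue was carotid artery, read as poly-A selected RNA from 5 SWNT and 5 SWNT-SHP1i animals, and the SWNT-SHP1i animal that died before harvest (replicate 4) was not analysed here. The labels give no strain, sex, age, litter or batch. Each sample carries its own animal number, which begins with B3 in replicate 3 of both groups and with B9 in the other 8 animals, so that the tests measure the spread between single animals. Values below are listed for SWNT replicates 1, 2, 3, 4 and 5 and SWNT-SHP1i replicates 1, 2, 3, 5 and 6, in that order.

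Collagens are secreted proteins in which 3 chains wind into a triple helix. Fibrillar types I, III and V form the fibrils that give the artery wall its tensile strength, type IV forms the sheet of the basement membrane around smooth muscle cells and under the endothelium, type VI makes beaded filaments at the cell surface, and type VIII forms lattices and is made by vascular cells. Smooth muscle cells of the media and fibroblasts of the adventitia are the main collagen-producing cells of an artery, and both change their collagens in atherosclerosis.

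Libraries held 27593564 to 47718854 counts. SWNT-SHP1i replicate 6 stood apart, with a median rank correlation of 0.868 to the other libraries over all genes tested, followed by SWNT-SHP1i replicate 3 with 0.935, where the other 8 ranged from 0.947 to 0.974. The 8 smooth muscle markers summed to 36130 to 54030 CPM in SWNT and 17200 to 43790 CPM in SWNT-SHP1i; none of them was at 0. Levels of chains are RPKM, that is CPM per kilobase of exon, with libraries scaled by TMM. The test is edgeR's quasi-likelihood test over 15930 genes, with Benjamini-Hochberg adjustment. Each fold change is the log2 of SWNT-SHP1i over SWNT with its standard error (SE).

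Collagen transcripts made up a large part of these libraries, 11.0%, 7.88%, 6.35%, 7.52% and 7.85% of all counts in SWNT and 11.2%, 12.8%, 8.27%, 10.5% and 10.4% in SWNT-SHP1i. All SWNT libraries but replicate 1 lay under the SWNT-SHP1i range. COL1A1 alone took 1.56% to 3.46% of all counts in SWNT and 2.81% to 4.89% in SWNT-SHP1i. The make-up of the collagen counts also differed. Basement membrane chains held 12.7%, 20.2%, 24.9%, 14.7% and 21.2% of the collagen counts in SWNT and 9.49%, 9.17%, 10.1%, 14.01% and 8.20% in SWNT-SHP1i. The groups overlapped there through SWNT replicate 1 and SWNT-SHP1i replicate 5. Fibrillar chains held 62.3% to 78.5% in SWNT and 75.4% to 83.8% in SWNT-SHP1i. Cartilage chains held 0.033% to 0.065% in SWNT and 0.007% to 0.027% in SWNT-SHP1i, with no overlap of these shares. Most of these counts were COL9A3, except in SWNT-SHP1i replicate 6, where COL11A1 had more (425 against 319 counts). The level of COL9A3 itself overlapped, with 6.13 RPKM in SWNT replicate 3 and 9.79 RPKM in SWNT-SHP1i replicate 2. A share of collagen counts also depends on the other chains, so the share of another class falls when COL1A1 counts rise. In RPKM, COL4A1 of SWNT replicate 4 (436) lay below SWNT-SHP1i replicates 1, 2, 5 and 6 (443 to 781). These shares are descriptions without a test, and in bulk tissue fewer cells of a type and less RNA per cell cannot be told apart.

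**Figure D1:**
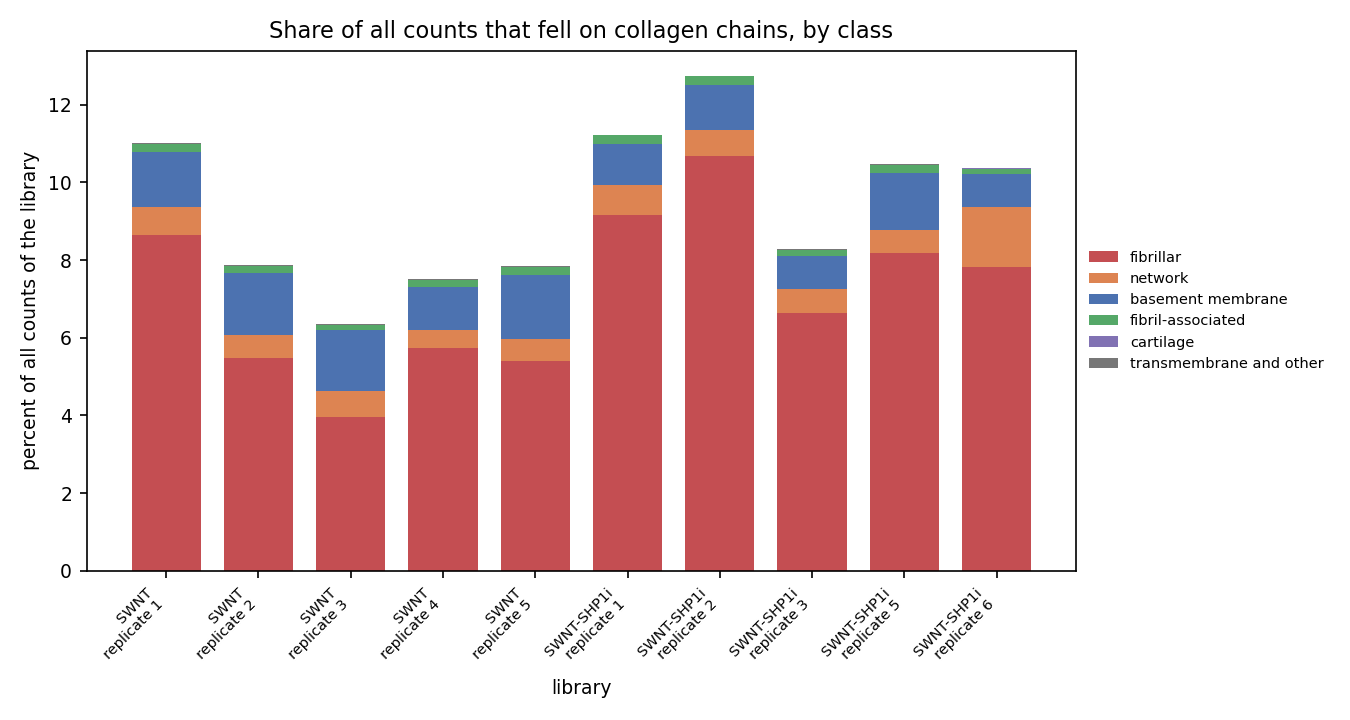
Bars give the percent of each library's counts (vertical axis, from 0) that fell on collagen chains, stacked by class, for 10 libraries. The blue basement membrane part is thickest relative to its bar in SWNT replicate 3 (24.9% of collagen counts) and thinnest in SWNT-SHP1i replicate 6 (8.20%), whose network part is the widest (15.0%).

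Of the 39 chains, 34 passed the filter on low counts and were tested. No chain passed the test over all genes (0 of 34, smallest adjusted p = 0.997), where edgeR called 0.0% of all genes, and DESeq2 and limma-voom also called 0 chains. At an unadjusted p under 0.05 there were 2 higher chains, COL1A1 and COL1A2, and 2 lower chains, COL18A1 and COL9A3, 5.88% of the 34 in each direction beside 3.49% of all genes tested that were higher and 1.15% that were lower (4.64% in either direction). None of the 34 had groups that did not overlap, beside 0.0816% of all genes tested higher and 0.276% lower. Positive fold changes were found in 19 of 34 chains (55.9%, beside 50.8% of all genes, where 49.2% were negative), with a median of 0.16 beside 0.01 over all genes.

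**Figure D2:**
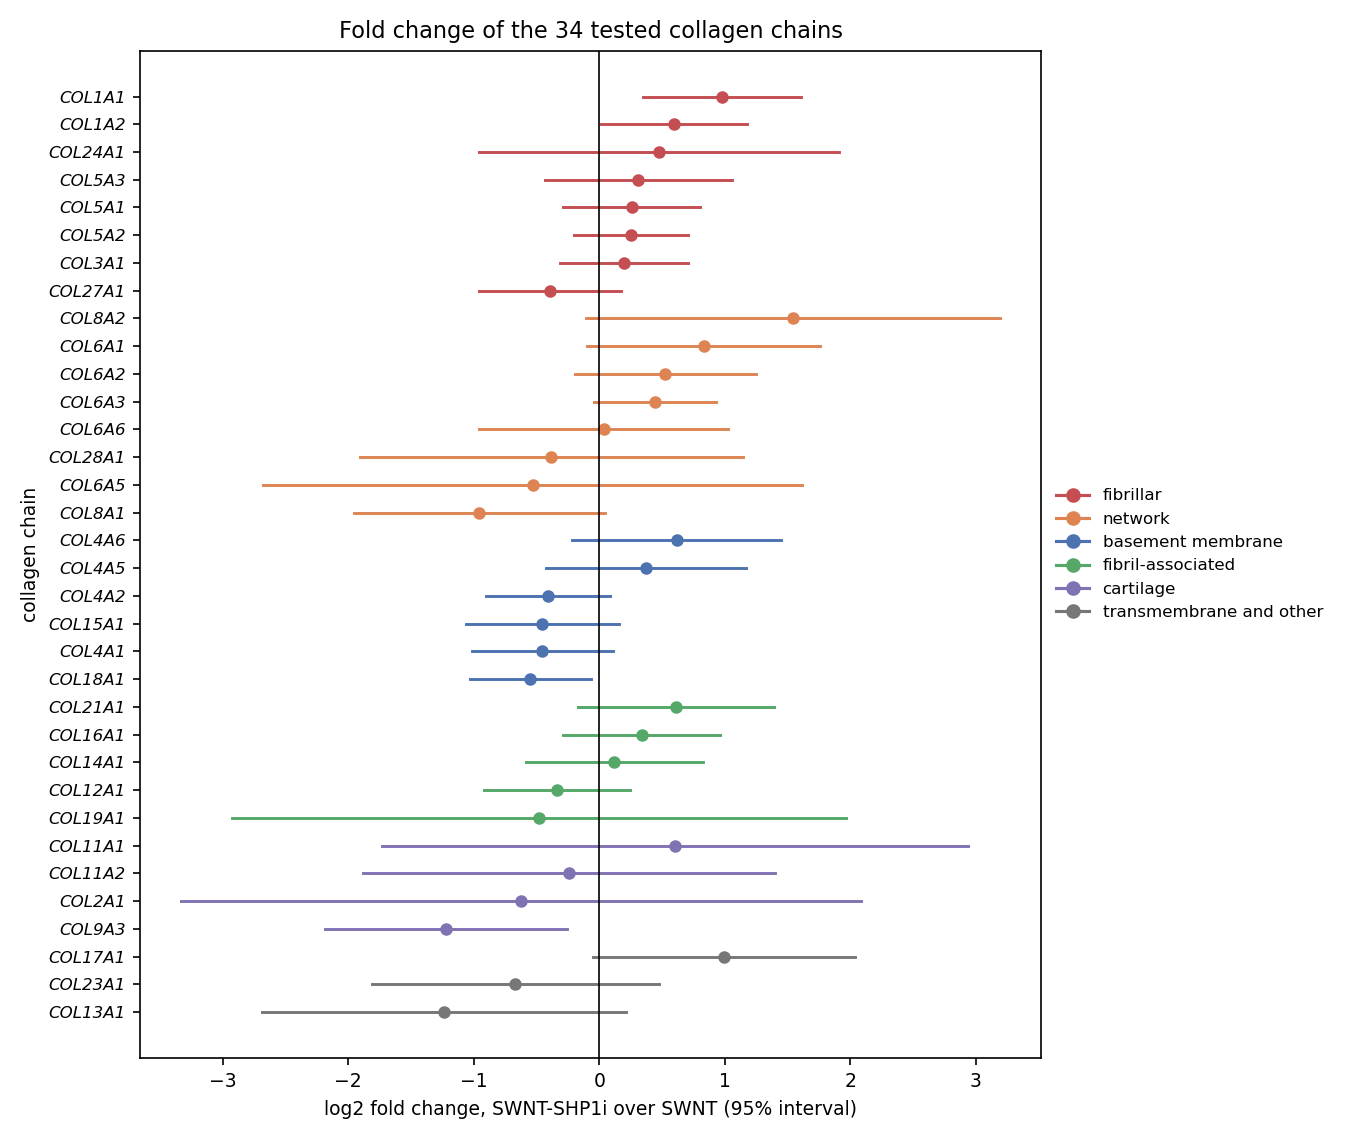
Points are log2 fold changes of SWNT-SHP1i over SWNT (horizontal axis) for the 34 tested chains, with 95% intervals as lines and colours by class. COL1A1 (0.98), COL1A2 (0.60), COL18A1 (-0.55) and COL9A3 (-1.22) have intervals that do not include 0, before any adjustment for the number of genes.

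Fibrillar chains were mostly on the higher side in SWNT-SHP1i, with 7 of 8 fold changes positive and a median of 0.29, and type I stood first. COL1A1, the alpha1 chain of type I collagen (chromosome 12, 26379090 to 26397004 on Sscrofa11.1), had the highest mean level per length over the 10 libraries. It stood at 5451, 3092, 2946, 2327 and 2520 RPKM in SWNT and 6390, 7740, 4722, 4528 and 8844 RPKM in SWNT-SHP1i. The groups overlapped only because SWNT replicate 1 lay above SWNT-SHP1i replicates 3 and 5. Its fold change was 0.98 ± 0.29 (SE, 95% interval 0.35 to 1.61, adjusted p = 0.997), the 38th smallest p of all genes. Without SWNT-SHP1i replicates 3 and 6 it was 0.94, and with 1 library left out it ran from 0.84 to 1.24. Summed fibroblast markers were at 2504 to 5706 CPM in SWNT and 4701 to 7653 CPM in SWNT-SHP1i, or 2484 to 5664 and 3330 to 6581 CPM without SFRP2, which was at 4323 CPM in replicate 6. The lowest of these last SWNT-SHP1i sums, 3330 CPM, was that of replicate 6, where COL1A1 was highest. Summed macrophage markers were at 310 to 911 CPM in SWNT and 320 to 1825 CPM in SWNT-SHP1i. The part of either list in this difference was not tested.

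COL1A2, which supplies the alpha2 chain of the same trimer (chromosome 9, 74173931 to 74210397), stood at 3202, 1897, 1257, 2449 and 1904 RPKM in SWNT and 3480, 4235, 2697, 3441 and 2362 RPKM in SWNT-SHP1i. Here SWNT-SHP1i replicates 1, 2 and 5 lay over the SWNT range, and the fold change was 0.60 ± 0.27 (SE, 95% interval 0.02 to 1.18). In COL3A1, the type III chain of distensible tissues (chromosome 15, 93526603 to 93596363), the groups lay close, at 5360, 4341, 2641, 4226 and 4540 RPKM against 5307, 5552, 4091, 5758 and 3454 RPKM. Its fold change of 0.20 ± 0.24 (SE) has a 95% interval of -0.32 to 0.71 and ran from 0.06 (without SWNT replicate 3) to 0.30 with 1 library left out. In SWNT the mean level of COL3A1 per length (4222 ± 989 RPKM, SD, n = 5) was above that of COL1A1 (3267 ± 1259), while in SWNT-SHP1i it was below (4832 ± 1006 against 6445 ± 1876).

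Type V chains, which nucleate fibrils and limit their width, were the next fibrillar members. COL5A1 (chromosome 1, 273971971 to 274085111) stood at 401, 321, 337, 178 and 301 RPKM in SWNT and 347, 363, 267, 340 and 525 RPKM in SWNT-SHP1i (0.26 ± 0.25, SE, 95% interval -0.29 to 0.81). The groups overlapped widely, and the fold change was 0.097 without SWNT-SHP1i replicate 6 and 0.105 when SWNT replicate 4 was left out. COL5A2, the second type V chain, ranged from 93.3 to 149 RPKM in SWNT. In SWNT-SHP1i 4 libraries lay above that range (152 to 184 RPKM) and replicate 6, at 104 RPKM, lay inside it, for a fold change of 0.25 ± 0.21 (SE, 95% interval -0.20 to 0.70). COL5A3 had a fold change of 0.31 ± 0.34 (SE) and the low-abundance chain COL24A1 one of 0.47 ± 0.66. In both, only SWNT-SHP1i replicate 6 lay above the SWNT range (34.7 RPKM against at most 18.9, and 1.31 RPKM against at most 1.23). COL27A1 was the fibrillar chain with a negative fold change (-0.39 ± 0.26, SE, 95% interval -0.95 to 0.17).

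**Figure D3:**
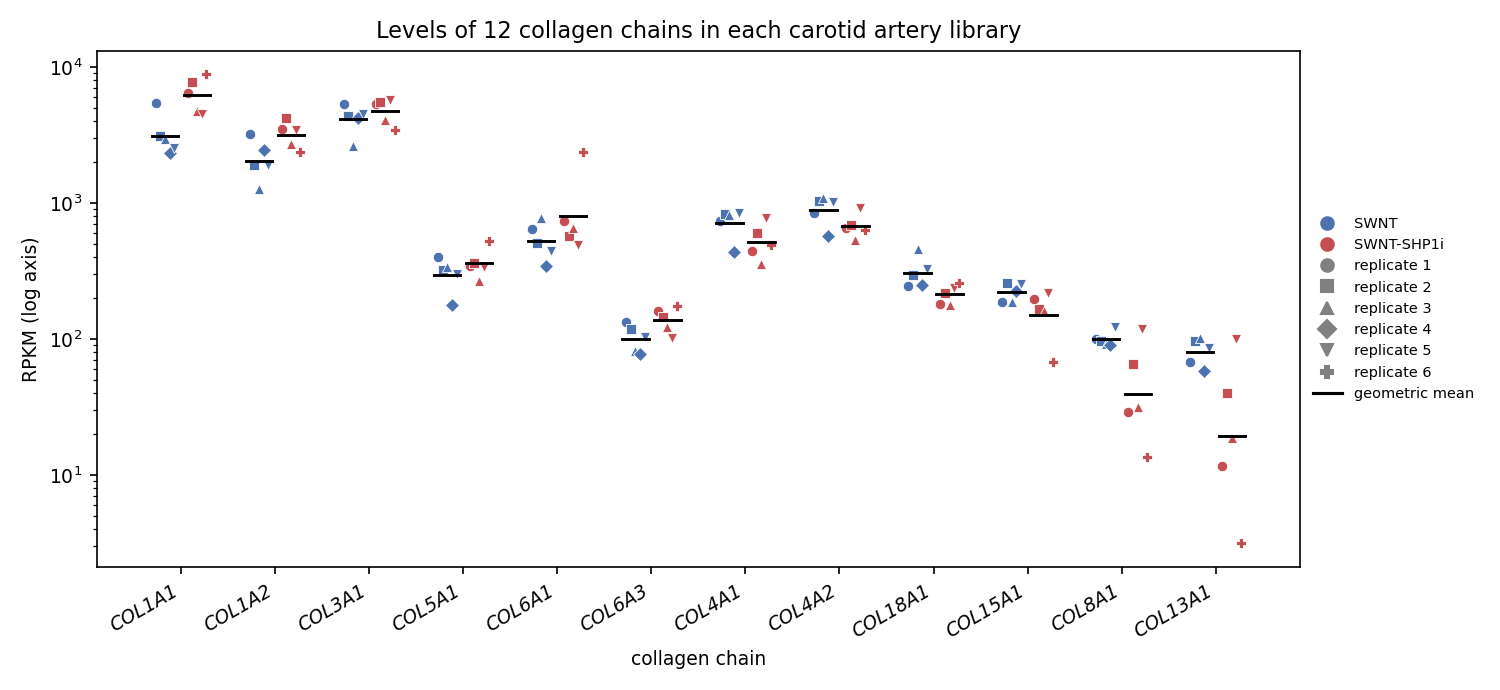
Each point is 1 library's level in RPKM (vertical log axis) for 12 chains, SWNT in blue and SWNT-SHP1i in red, with the marker giving the replicate and black lines geometric means. COL1A1 spans 2327 to 8844 RPKM, and in COL8A1 and COL13A1 SWNT-SHP1i replicate 5 sits among the SWNT libraries while the other SWNT-SHP1i libraries are below them.

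Ratios of 2 chains within a library do not depend on how libraries are scaled. They were compared for 9 pairs with an exact permutation test (two-sided, 252 assignments of libraries), where the smallest possible p is 0.00794, and adjusted over the 9 pairs. The ratios of COL4A1, COL8A1 and COL5A1 to COL1A1 fell in SWNT-SHP1i. These 3 pairs share COL1A1, as do COL1A1 to COL3A1 and COL1A1 to COL1A2. The higher COL1A1 values in SWNT-SHP1i were known when the pairs were chosen. The pairs with COL1A1 are therefore not independent of each other or of that result.

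Per length, COL4A1 stood to COL1A1 as 0.135, 0.266, 0.277, 0.187 and 0.333 in SWNT and as 0.0693, 0.0774, 0.0753, 0.172 and 0.0551 in SWNT-SHP1i. All SWNT-SHP1i libraries but replicate 5 were below all SWNT libraries. The mean log2 ratio went from -2.13 ± 0.52 in the SWNT group (SD, n = 5) to -3.60 ± 0.62, a difference of -1.47 (exact permutation p = 0.0159, adjusted p = 0.0476). COL8A1 stood to COL1A1 as 0.0184, 0.0311, 0.0311, 0.0386 and 0.0490 in SWNT and as 0.00454, 0.00847, 0.00671, 0.0263 and 0.00155 in SWNT-SHP1i, again with only replicate 5 inside the SWNT range. That log2 difference was -2.33 (exact permutation p = 0.0159, adjusted p = 0.0476).

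COL5A1 stood to COL1A1 as 0.0736, 0.104, 0.114, 0.0767 and 0.119 in SWNT and as 0.0543, 0.0469, 0.0565, 0.0750 and 0.0594 in SWNT-SHP1i. The difference was smaller (-0.73 on the log2 scale) but the spread was narrow in both groups (SD 0.33 and 0.25, n = 5), with the same exact permutation p = 0.0159 and adjusted p = 0.0476. These 3 calls were close to the threshold. They held without SWNT replicate 1 or SWNT-SHP1i replicate 5 and ended without any other single library (adjusted p of 0.0714 to 0.119), although each difference kept its sign. In all 3 pairs the groups overlapped only through those 2 libraries. Leaving out either one separates the groups, so these 2 settings cannot show whether the calls are robust. Over the 8 B9 animals the differences were -1.36, -2.36 and -0.66 (exact permutation p = 0.0571, adjusted p = 0.129 each), and without SWNT-SHP1i replicates 3 and 6 they were -1.23, -1.68 and -0.73 (adjusted p = 0.161 each). Both subsets have fewer assignments and so a larger smallest possible p, so these adjusted p values cannot decide whether the calls hold.

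COL1A1 to COL3A1 stood at 0.551 to 1.12 in SWNT and 0.786 to 2.56 in SWNT-SHP1i (log2 difference 0.80, exact permutation p = 0.0476, adjusted p = 0.107). Without SWNT-SHP1i replicate 5 that difference was 0.98 and passed (adjusted p = 0.0357), the 1 setting tried in which this pair passed. Within trimers no ratio passed. COL1A1 to COL1A2 was 0.950 to 2.34 in SWNT and 1.32 to 3.74 in SWNT-SHP1i (log2 difference 0.37, exact permutation p = 0.294), and COL4A1 to COL4A2 was the steadiest pair, at 0.757 to 0.867 and 0.661 to 0.873 (-0.07, exact permutation p = 0.444). COL12A1 to COL14A1 gave -0.44 (exact permutation p = 0.270), COL6A3 to COL6A1 -0.16 (exact permutation p = 0.595) and COL15A1 to COL18A1 -0.01 (exact permutation p = 0.960).

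**Figure D4:**
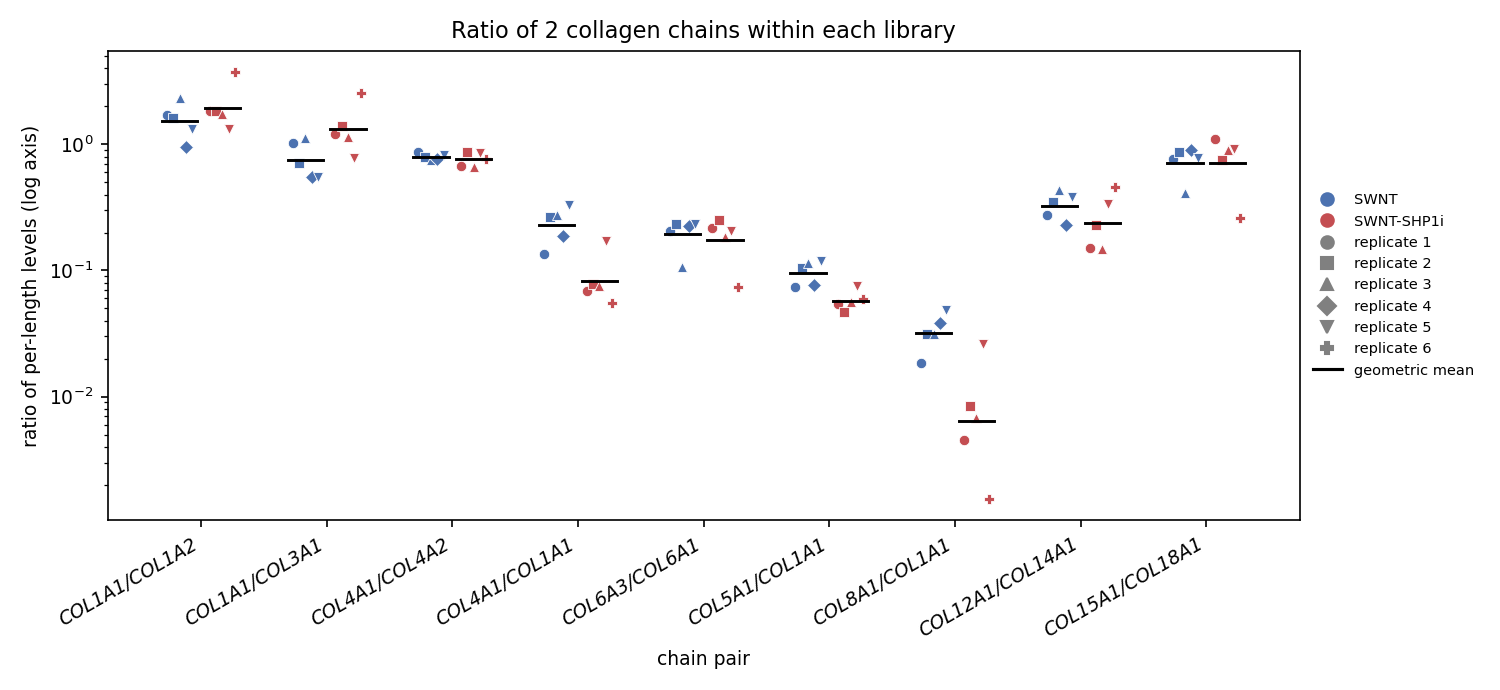
Each point is the ratio of 2 chains' per-length levels in 1 library (vertical log axis) for 9 pairs, SWNT in blue and SWNT-SHP1i in red, with black lines for geometric means. In the 3 pairs COL4A1, COL5A1 and COL8A1 to COL1A1 the red points lie lower, with SWNT-SHP1i replicate 5 highest among them (0.172, 0.0750 and 0.0263).

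Network chains had no common direction, with 5 of 8 fold changes positive and a median of 0.24. COL6A1, COL6A2 and COL6A3 encode the chains of type VI collagen. COL6A1 (chromosome 13, 208295451 to 208313127) stood at 642, 511, 771, 345 and 442 RPKM in SWNT and 733, 575, 659, 489 and 2364 RPKM in SWNT-SHP1i. Only replicate 6 was outside the SWNT range, and the fold change of 0.83 ± 0.43 (SE, 95% interval -0.10 to 1.76) became 0.18 without it. COL6A2, which this build places on an unplaced scaffold, stood at 750, 659, 802, 444 and 628 RPKM in SWNT and 852, 621, 674, 639 and 1942 RPKM in SWNT-SHP1i, with replicate 1 just above and replicate 6 far above the SWNT range (0.53 ± 0.33, SE; 0.09 without replicate 6). COL6A3, the longest chain of the type (chromosome 15, 137011433 to 137103709), stood at 133, 119, 81.9, 77.2 and 104 RPKM in SWNT and 160, 145, 123, 101 and 174 RPKM in SWNT-SHP1i, with 3 libraries above the SWNT range (0.45 ± 0.22, SE, 95% interval -0.04 to 0.93). COL6A6 had a fold change of 0.04 ± 0.46 (SE), and COL6A5, at 0.351 RPKM or less in every library, one of -0.53 ± 0.99.

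COL8A1, the main type VIII chain (chromosome 13, 159216144 to 159374576), stood at 101, 96.2, 91.7, 89.8 and 124 RPKM in SWNT and 29.0, 65.5, 31.7, 119 and 13.7 RPKM in SWNT-SHP1i. SWNT-SHP1i replicates 1, 2, 3 and 6 were all below the lowest SWNT library and replicate 5 was near the top of the SWNT range. The fold change was -0.96 ± 0.46 (SE, 95% interval -1.95 to 0.04). It was -0.49 without replicates 3 and 6 and -1.52 without replicate 5 (adjusted p = 0.311). Summed smooth muscle markers had replicate 5 inside the SWNT range too (43790 CPM) and the other SWNT-SHP1i libraries below it (17200 to 33590 CPM), and their part was not tested. COL8A2, its partner chain, was far less abundant and had a fold change of 1.54 ± 0.76 (SE, 95% interval -0.10 to 3.19), which was 0.27 without replicate 6. It stood at 0.698, 1.499, 0.616, 0.231 and 1.24 RPKM in SWNT and 0.511, 1.75, 0.749, 1.12 and 8.39 RPKM in SWNT-SHP1i. COL28A1 gave -0.38 ± 0.70 (SE).

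Among basement membrane chains, the 4 abundant ones, COL4A1, COL4A2, COL15A1 and COL18A1, had negative fold changes, while COL4A5 and COL4A6 had positive ones (median of the 6 tested -0.43, and -0.21 without SWNT-SHP1i replicates 3 and 6). COL4A1 and COL4A2 encode the common type IV trimer. COL4A1 (chromosome 11, 76858356 to 76997322) stood at 734, 823, 817, 436 and 839 RPKM in SWNT and 443, 599, 356, 781 and 487 RPKM in SWNT-SHP1i. SWNT replicate 4 was low, so that only 1 SWNT-SHP1i library was below the SWNT range (-0.45 ± 0.26, SE, 95% interval -1.02 to 0.11). COL4A2 followed it at 847, 1039, 1079, 573 and 1022 RPKM against 657, 687, 538, 918 and 637 RPKM (-0.41 ± 0.23, SE, 95% interval -0.90 to 0.09).

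COL18A1, source of the endostatin fragment (chromosome 13, 207940948 to 207982938), stood at 246, 297, 457, 250 and 328 RPKM in SWNT and 180, 219, 178, 239 and 260 RPKM in SWNT-SHP1i. All SWNT-SHP1i libraries but replicate 6 lay under the SWNT range. The fold change was -0.55 ± 0.22 (SE, 95% interval -1.03 to -0.07, adjusted p = 0.997), -0.38 without SWNT replicate 3 and -0.32 over the B9 animals. COL15A1, its close relative, stood at 188, 256, 187, 225 and 255 RPKM in SWNT and 199, 165, 161, 218 and 68.1 RPKM in SWNT-SHP1i (-0.45 ± 0.28, SE, 95% interval -1.06 to 0.15; -0.26 without replicate 6).

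COL4A5 and COL4A6 form the type IV trimer of smooth muscle basement membranes. COL4A6 stood at 15.1, 28.9, 7.91, 15.2 and 25.7 RPKM in SWNT and 51.2, 21.7, 33.1, 18.9 and 17.2 RPKM in SWNT-SHP1i, and COL4A5 at 23.4, 38.5, 16.2, 30.4 and 40.9 against 68.1, 30.9, 43.7, 35.9 and 14.8 RPKM. SWNT-SHP1i replicates 1 and 3 were above the SWNT range for both genes. The fold changes were 0.62 ± 0.38 (SE, 95% interval -0.22 to 1.45) and 0.37 ± 0.37 (SE, 95% interval -0.43 to 1.17), and without SWNT-SHP1i replicate 1 they were 0.28 and 0.06. For COL4A5 it was also 0.58 with SWNT-SHP1i replicate 6 left out, and 0.21 with SWNT replicate 3 left out. COL4A3 and COL4A4, which serve specialised membranes such as that of the glomerulus, were not tested. COL4A3 had 34, 2, 0, 24 and 4 counts in SWNT and 15, 0, 0, 14 and 6 counts in SWNT-SHP1i, and COL4A4 had 10, 0, 6, 16 and 6 against 4, 14, 0, 12 and 0.

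Fibril-associated chains sit on the surface of fibrils. COL14A1 was the most abundant, at 152, 129, 70.9, 147 and 124 RPKM in SWNT and 172, 170, 138, 149 and 49.0 RPKM in SWNT-SHP1i. SWNT replicate 3 and SWNT-SHP1i replicate 6 were each low in their group (0.12 ± 0.33, SE, 95% interval -0.59 to 0.83). COL12A1 stood at 41.8, 45.1, 30.9, 33.6 and 47.5 RPKM in SWNT and 25.8, 39.0, 20.4, 49.8 and 22.5 RPKM in SWNT-SHP1i, with 3 libraries under the SWNT range and 1 above it (-0.34 ± 0.27, SE, 95% interval -0.92 to 0.24; -0.22 without replicate 3 and -0.56 without replicate 5). COL16A1 stood at 54.4, 60.2, 55.1, 43.2 and 66.1 RPKM in SWNT and 56.7, 66.5, 45.6, 51.2 and 132 RPKM in SWNT-SHP1i, and its fold change of 0.34 ± 0.29 (SE) was -0.02 without replicate 6. COL21A1 stood at 5.56, 7.65, 4.14, 6.36 and 4.75 RPKM in SWNT and 16.2, 4.55, 12.2, 5.44 and 5.16 RPKM in SWNT-SHP1i, where replicates 1 and 3 were above the SWNT range (0.61 ± 0.36, SE, 95% interval -0.17 to 1.39; 0.25 without replicate 1). COL19A1 had at most 53 counts in a library, and COL22A1 at most 28.

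Cartilage chains were scarce in this artery. COL9A3, a chain of type IX collagen (chromosome 17, 62074855 to 62093703), was the most abundant of them, at 10.7, 17.4, 6.13, 9.999 and 15.1 RPKM in SWNT and 2.18, 9.79, 1.98, 6.64 and 4.88 RPKM in SWNT-SHP1i. SWNT-SHP1i replicates 1, 3 and 6 were below every SWNT library. Its fold change was -1.22 ± 0.44 (SE, 95% interval -2.18 to -0.26, adjusted p = 0.997), ran from -1.60 to -1.02 with 1 library left out, and was -0.93 without replicates 3 and 6. COL11A1, a minor chain of cartilage fibrils, stood at 0.499, 0.594, 0.118, 0.427 and 1.02 RPKM in SWNT and 0.0826, 0.674, 0, 0.557 and 2.74 RPKM in SWNT-SHP1i, with replicate 6 above and replicates 1 and 3 below the SWNT range (0.60 ± 1.07, SE; -0.69 without replicate 6). COL11A2 (-0.24 ± 0.76, SE) and COL2A1, the main cartilage fibril chain (-0.62 ± 1.25), were at 0.723 RPKM or less in every library, and COL9A1 had at most 16 counts. The other cartilage genes read here, 5 of them tested, had a median fold change of -0.12, with 2 of 5 positive. ACAN, which encodes aggrecan, stood at 78.7, 62.8, 91.0, 47.9 and 89.7 CPM in SWNT and 7.57, 34.4, 8.04, 136 and 11.7 CPM in SWNT-SHP1i (-0.90 ± 0.71, SE). HAPLN1, the link protein of aggrecan, stood at 37.5, 54.7, 34.2, 52.3 and 52.5 CPM against 74.1, 37.8, 60.2, 52.8 and 9.15 CPM, with no common direction (0.02 ± 0.41, SE). SOX9, the cartilage transcription factor, was at 0.295 to 2.68 CPM (0.19 ± 0.70, SE), and CNMD (-0.12 ± 0.64, SE) and COMP (-0.54 ± 1.03, SE) were scarce as well.

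Transmembrane chains stay anchored in the cell membrane. COL13A1 (chromosome 14, 72787303 to 72953095), found at cell adhesions and nerve contacts, stood at 68.1, 96.8, 101, 58.1 and 86.1 RPKM in SWNT and 11.6, 40.1, 18.7, 101 and 3.15 RPKM in SWNT-SHP1i. The pattern was that of COL8A1, with SWNT-SHP1i replicate 5 within the SWNT range and the other 4 below it. The fold change was -1.24 ± 0.67 (SE, 95% interval -2.68 to 0.21), -0.69 without replicates 3 and 6 and -2.16 without replicate 5 (adjusted p = 0.311). COL17A1, the hemidesmosome collagen, was low at 0.643, 1.95, 1.74, 1.65 and 1.71 RPKM in SWNT and 5.07, 1.16, 2.26, 1.20 and 5.66 RPKM in SWNT-SHP1i (0.99 ± 0.48, SE, 95% interval -0.05 to 2.03; 0.65 without replicate 6). COL23A1 had a fold change of -0.67 ± 0.53 (SE), and COL26A1, with at most 58 counts, was not tested.

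**Figure D5:**
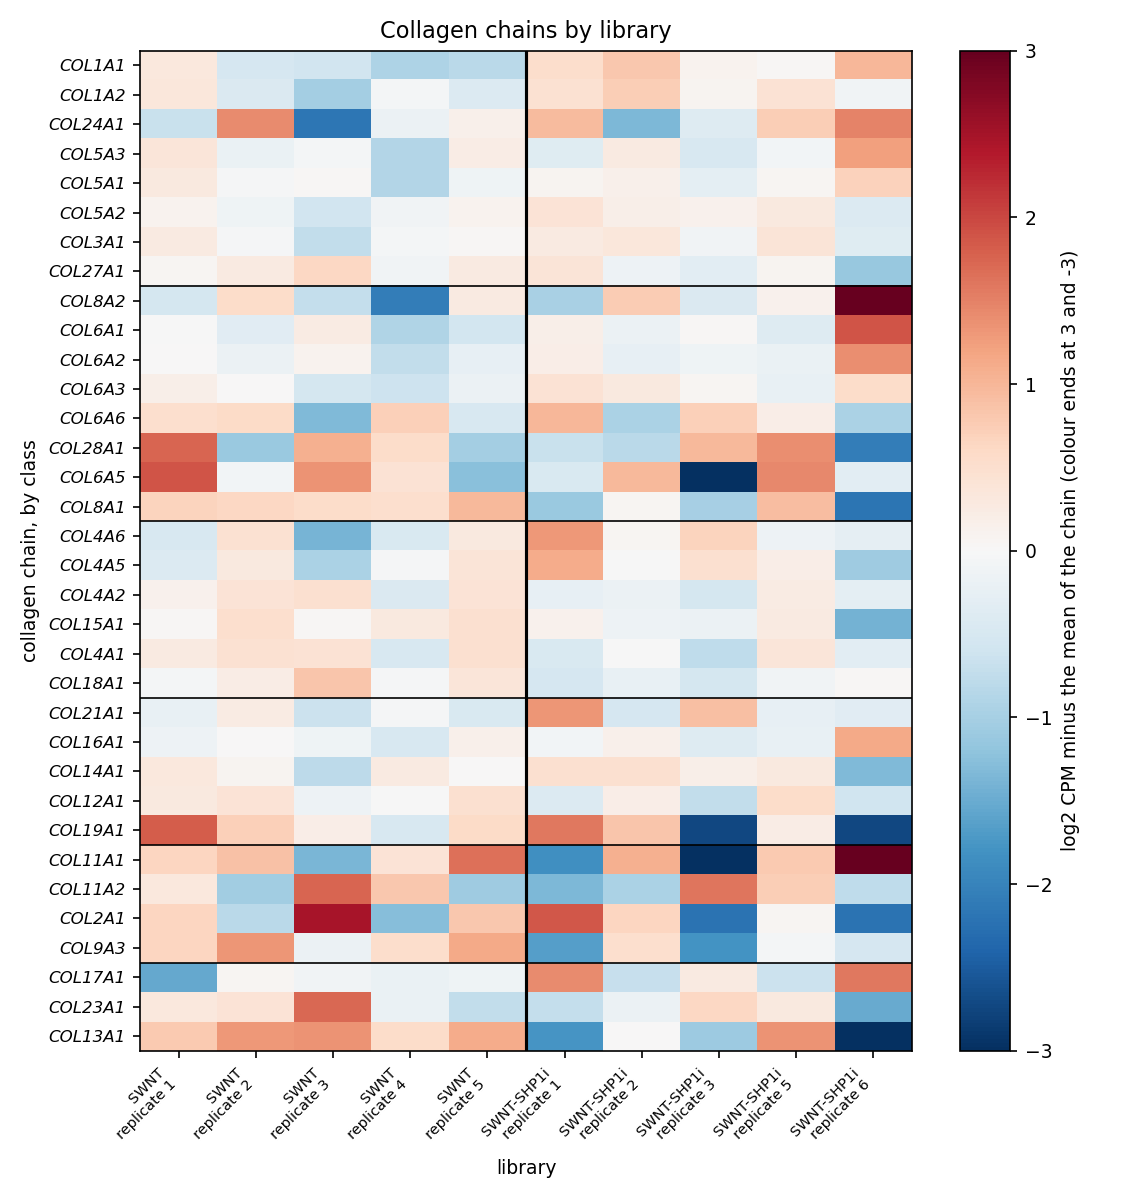
Colours give each chain's log2 CPM minus its mean over the 10 libraries (columns), for the 34 tested chains (rows) grouped by class, with red above and blue below the mean and the colour ending at 3 and -3. SWNT-SHP1i replicate 6 is deep red in COL6A1 and COL8A2 and deep blue in COL8A1 and COL13A1, the scarce chains COL6A5 and COL11A1 vary widely in both groups, and SWNT-SHP1i replicate 5 resembles the SWNT columns in COL8A1, COL13A1 and COL4A1.

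Some chain genes are neighbours. COL4A1 and COL4A2 lie head to head on chromosome 11, with 193 bases between them, and COL4A6 and COL4A5 head to head on chromosome X, with 1432 bases between. COL3A1 and COL5A2 lie tail to tail on chromosome 15 with 15492 bases and 1 other gene of the table between. No exon of the 39 chains overlapped an exon of another gene in the table. Levels of paired chains were compared on the log2 CPM scale over the 10 libraries of both groups, 5 a group being too few for a value within each. Each r and p therefore mixes the difference between groups with the spread between animals. The 8 pairs were chosen after the table was seen and compared with a permutation test, with p adjusted over the pairs. COL4A1 and COL4A2 gave Pearson's r = 0.966 (p = 1e-05, the smallest 100000 permutations can give, adjusted p = 8e-05) and Spearman's rho = 0.939 (permutation p = 0.00015). Without the 2 libraries farthest from the median of the chain named first in a pair, r was 0.943, and over the 8 B9 animals 0.962.

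COL6A1 and COL6A2 gave r = 0.982 (permutation p = 6e-05, adjusted p = 0.00024) and rho = 0.903 (permutation p = 0.0009), with r = 0.839 without the 2 farthest libraries and 0.989 over the B9 animals. COL4A5 and COL4A6 gave r = 0.865 (permutation p = 0.00154, adjusted p = 0.00308) and rho = 0.903 (permutation p = 0.00084), with 0.937 and 0.815. COL3A1 and COL5A2 gave r = 0.907 (permutation p = 0.00041, adjusted p = 0.00109) and rho = 0.782 (permutation p = 0.0105), with 0.811 and 0.913 for the same subsets. COL4A1 with COL8A1 gave r = 0.719 (permutation p = 0.0163, adjusted p = 0.0262) and rho = 0.758 (permutation p = 0.0149), with 0.901 and 0.683. The relation of COL6A1 with COL6A3 (r = 0.643, permutation p = 0.0327, adjusted p = 0.0436; rho = 0.600, permutation p = 0.0724) rested on the 2 farthest libraries, since r was 0.139 without them (0.802 over the B9 animals). COL1A1 with COL1A2 did not pass after adjustment (r = 0.643, permutation p = 0.0456, adjusted p = 0.0521; rho = 0.564, permutation p = 0.0962), although r was 0.893 without SWNT replicate 4 and SWNT-SHP1i replicate 6 (0.631 over the B9 animals). COL1A1 and COL3A1 gave r = 0.287 (permutation p = 0.428) and rho = 0.212 (permutation p = 0.556), with 0.621 without the same 2 libraries and 0.111 over the B9 animals.

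Genes that make, process and bind collagen were read beside the chains, and 0 genes of any of the 4 lists passed over all genes. Among the enzymes and chaperones of chain synthesis, 13 of 21 had positive fold changes (median 0.38), and 2 (9.52%, beside 3.49% of all genes tested) were higher and 1 (4.76%, beside 1.15%) lower at an unadjusted p under 0.05. P3H2, a prolyl 3-hydroxylase that acts on type IV chains, stood at 61.2, 55.6, 94.7, 51.7 and 76.0 CPM in SWNT and 38.0, 47.0, 25.0, 55.1 and 32.1 CPM in SWNT-SHP1i, with only replicate 5 inside the SWNT range (-0.78 ± 0.25, SE). FKBP10, a procollagen chaperone, had a fold change of 0.86 ± 0.32 (SE) and CRTAP, of the prolyl 3-hydroxylase complex, 0.41 ± 0.18 (SE). FKBP10 stood at 221 to 260 CPM in SWNT and 311, 386, 310, 253 and 885 CPM in SWNT-SHP1i. P3H3, whose fold change is the median of the list, stood at 130 to 206.5 CPM against 129, 159, 133, 105 and 441 CPM. Fold changes of the listed genes without SWNT-SHP1i replicate 6 were not read. Of the propeptide proteases and cross-linking enzymes, 11 of 13 had positive fold changes (median 0.33), and the 3 with the smallest p were PCOLCE, the enhancer of procollagen C-propeptide removal (0.68 ± 0.27, SE), its protease BMP1 (0.68 ± 0.35, SE) and the lysyl oxidase LOXL2 (0.44 ± 0.27, SE). In all 3 the highest library was SWNT-SHP1i replicate 6 (1505, 540 and 146 CPM).

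Collagen receptors showed no common direction, with 6 of 11 fold changes positive and a median of 0.01. The endocytic receptor MRC2 gave 0.55 ± 0.26 (SE), the discoidin receptor DDR1 -0.29 ± 0.18 and DDR2 0.42 ± 0.30. MRC2 stood at 334 to 555 CPM in SWNT and 574, 572, 426.5, 471.5 and 1057 CPM in SWNT-SHP1i. The other basement membrane proteins (laminins, nidogens, perlecan and agrin) had a median of -0.11, with 4 of 11 positive, where NID1 gave 0.48 ± 0.32 (SE), LAMB2 -0.22 ± 0.20 and LAMA2 -0.84 ± 1.11.

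Markers of the cell types that the samples could hold were read in the same libraries, and 0 of them passed over all genes. Summed smooth muscle markers stood at 36520, 54030, 52710, 36130 and 51710 CPM in SWNT and 25670, 33590, 25460, 43790 and 17200 CPM in SWNT-SHP1i, again with only replicate 5 inside the SWNT range, and 8 of 8 had negative fold changes. Summed fibroblast markers stood at 5706, 4216, 2504, 4702 and 3542 CPM against 6532, 6756, 5898, 4701 and 7653 CPM, with 8 of 8 positive. SFRP2 alone made up 4323 CPM of the sum in SWNT-SHP1i replicate 6, where DCN, LUM and PI16 were lower than in the other SWNT-SHP1i libraries. Without SFRP2 the sums were 5664, 4193, 2484, 4629 and 3535 CPM against 6346, 6581, 5768, 4677 and 3330 CPM. Macrophage markers, 8 of 8 positive, summed to 911, 310, 341, 476 and 396 CPM against 1046, 1124, 1081, 320 and 1825 CPM. The 5 Schwann cell markers, 0 of 5 positive, summed to 135 to 171 CPM against 29.8 to 114 CPM. The groups did not overlap in this sum but did in each of the 5 markers. At an unadjusted p under 0.05 by edgeR, 8 of 8 macrophage and 2 of 8 fibroblast markers were higher (3.49% of all genes tested). Lower were 4 of 8 smooth muscle and 2 of 5 Schwann cell markers (1.15% of all genes tested). Skeletal muscle markers summed to 7.45 to 24.0 CPM in SWNT and 8.12 to 166 CPM in SWNT-SHP1i, nearly all of it CKM, the creatine kinase of muscle and the 1 member tested. Without CKM the sum was at most 0.522 CPM in SWNT and 5.16 CPM in SWNT-SHP1i. Adipocyte markers (1 of 5 positive) summed to 48.8 to 421 and 73.1 to 316 CPM. The chondrocyte list summed to 103 to 145 and 26.5 to 192 CPM (2 of 5 positive) and the endothelial list to 511 to 1564 and 601 to 1481 CPM (6 of 8 positive). None of these lists had a member at 0 in every library. Their part in the chain values was not tested.

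Over the 10 libraries, the named genes most like COL1A1 in log2 CPM, chains left out, were EMILIN2 (Pearson's r = 0.946), F13A1 (0.945), SFRP4 (0.939), CD163 (0.930) and TMEM184B (0.926). Those most like COL4A1 were MYO1D (0.948), GPR107 (0.947), KIF3C (0.944), BAHCC1 (0.934) and NFE2L1 (0.934). These correlations are descriptions, picked as the highest among all named genes tested.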

How the data were processed

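Whole read counts per gene for 10 carotid artery libraries were deposited by the authors without normalization. Per the submitters' processing notes, Trim Galore, STAR and DESeq2 were used with the build Sscrofa11.1; no source used here gives versions, the counting program or its strand setting. Summed exon lengths are per the file headers. Of counts from 6 to 20, 82.2% were even, so mates of a pair seem to be counted singly and counts are not independent molecules.

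Counts were filtered with filterByExpr (15930 genes left, at least 99.89% of each library), scaled by TMM and tested with edgeR 4.0.16 (R 4.3.3; robust quasi-likelihood fit, no covariate). Alternatives used DESeq2 1.42.0 and limma 3.58.1. Ratios and log2 CPM used a prior count of 2. B3 and B9 denote ranges of animal numbers, not a known batch. The SE is the absolute log2 fold change over the square root of F. The lowest median chi-square of any library pair was 5.51 (0.455 for sampling noise), so none was merged. Labels give 1 animal number per sample and no litter or batch.

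The members, lists and pairs were chosen with earlier results of these data known. Values per library were given, as the rule for named genes sets, for the 2 most abundant chains and the 2 with the smallest p of each class, the chains in the 9 ratios and COL4A1 to COL4A6; pathway genes are the 3 with the smallest p of each list. The cartilage genes, SFRP2, CKM, P3H3, COL5A2 and the other chains given by ranges were added after their values were seen. Of the listed genes, COL7A1, COL9A2, COL20A1, LAMA2 and MYH2 were named by RefSeq position (at least 0.5 of the union of spans), CD68 and GP6 by gene identifier, and LAIR1, MYLPF and S100B were not matched.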

Additional observations from a re-analysis of the deposited data

Results flagged for a closer look

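Among 68 sets of 5 libraries checked (chains and ratios described by library, in each group), 11 held a library far from the other 4 on the log2 scale, where chance gives about 1 in 20 for a single set. The sets share animals and chains and are not independent, so the count cannot show an excess over that rate. SWNT-SHP1i replicate 6 was the lowest of its group for COL14A1 (49.0 RPKM) and COL15A1 (68.1 RPKM), the highest for COL6A1 (2364 RPKM) and COL6A2 (1942 RPKM), and the lowest for the ratios COL6A3 to COL6A1 (0.0735) and COL15A1 to COL18A1 (0.262). SWNT replicate 3 was the lowest of its group for COL14A1 (70.9 RPKM), COL6A3 to COL6A1 (0.106) and COL15A1 to COL18A1 (0.409). SWNT replicate 4 was far below the others for COL4A1 (436 RPKM), and SWNT replicate 1 for COL17A1 (0.643 RPKM).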

How the results depend on the processing

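No chain was called by edgeR under any scaling, filter, term, threshold or set of libraries tried, nor by DESeq2 or limma-voom. Chains higher at an unadjusted p under 0.05 (2) numbered 6 with DESeq2, 4 with limma-voom, 1 with upper-quartile scaling, 1 over the B9 animals (added after seeing the data) and 1 to 5 with 1 library left out. Lower chains (2) numbered 4, 5, 2 and 1, and 1 to 7 with 1 library left out, and 1 without SWNT-SHP1i replicates 3 and 6. With 1 library left out, the highest counts of both came without SWNT-SHP1i replicate 5. The share of all genes at that p was read for the main fit only (3.49% higher and 1.15% lower). In the other settings these counts therefore cannot be told apart from a shift of all genes. The transmembrane median (-0.67, 3 chains) was 0.15 without a filter and ran from -0.94 to 0.20 with 1 library left out, and wherever it was above 0 COL26A1 was tested too; the cartilage median (-0.43) was 0.33 without SWNT replicate 3. COL11A1 turned negative with limma-voom (-1.08), without SWNT-SHP1i replicate 6 (range -0.69 to 0.98) and without replicates 3 and 6 (-0.27); COL14A1 without SWNT replicate 3 (range -0.029 to 0.33) and over the B9 animals (-0.03); COL16A1 without replicate 6 (range -0.021 to 0.45).

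With medians in place of means the differences of COL4A1, COL5A1 and COL8A1 to COL1A1 were -1.82, -0.88 and -2.21 (adjusted p = 0.107 by exact permutation), without SWNT-SHP1i replicates 3 and 6 -1.23, -0.73 and -1.68, over the B9 animals -1.36, -0.66 and -2.36, and with 1 library left out they ran from -1.73 to -1.32, -0.82 to -0.65 and -2.84 to -1.82; with fewer libraries there are fewer assignments. COL1A1 to COL3A1 ran from 0.56 to 0.98. COL6A3 to COL6A1 ran from -0.38 to 0.15 and was 0.22 without replicates 3 and 6. COL15A1 to COL18A1 ran from -0.22 to 0.35, and was 0.22 with medians and 0.35 without replicates 3 and 6. No paired analysis was possible because replicate numbers here follow the order of the samples and tie no animal of one group to one of the other. For chains under about 50 counts a library, depth limits what can be seen.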

Other observations

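Collagen genes lie in the table under position only as well. COL20A1, a fibril-associated chain that the table does not name, stood at 5.23, 6.63, 3.25, 3.41 and 6.34 RPKM in SWNT and 1.22, 4.48, 1.88, 3.19 and 0.597 RPKM in SWNT-SHP1i (log2 fold change -1.13 ± 0.46, SE, adjusted p = 0.997). Its lowest libraries, SWNT-SHP1i replicates 1, 3 and 6, are also those in which COL8A1, COL13A1 and COL9A3 were lowest. COL7A1, the anchoring fibril chain, stood at 6.08 to 13.5 RPKM in SWNT and 7.46 to 14.1 RPKM in SWNT-SHP1i (0.06 ± 0.26, SE). COL9A2, a type IX chain, was at 1.95 to 2.43 RPKM in SWNT and from 0 to 6.20 RPKM in SWNT-SHP1i (0.21 ± 0.86, SE).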
